A study of Mus musculus with 53 samples.

Results

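Tead1, Tead2, Tead3 and Tead4 are the 4 mouse members of the TEAD family of transcription factors, taken by gene symbol from 55665 entries of the bulk tables and 57010 genes of the single-cell matrices. They were followed through mouse cerebellum in which the Cre recombinase of the Atoh1Cre allele, active in the granule cell lineage, deleted either Insm1 (Insm1fl/fl) or Tead1 and Tead2 together (Tead1fl/fl;Tead2fl/fl). Controls were littermates with the same floxed alleles and no Cre, so the Tead1/2 controls also carry floxed Tead1 and Tead2. Bulk RNA was sequenced at postnatal day 2 (P2) from single pups: the Insm1 line gave 4 controls and 4 mutants, and the Tead1/2 line 3 controls and 4 mutants. Single cells were sequenced at postnatal day 7 (P7) from 1 cerebellum per animal: 2 controls and 3 mutants for each line, where number 1 of each group holds all lobules and numbers 2 and 3 lack lobules IX and X. At P2 the Insm1 line is labelled batch 2 and the Tead1/2 line batch 3, so line and batch cannot be told apart there, whereas all P7 libraries are labelled batch 1. The Cre acts only in cells that have expressed Atoh1 and in their descendants, so both assays mix deleted and undeleted cells.

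TEAD proteins bind DNA through a shared TEA domain and have little activity of their own. They recruit YAP (Yap1) and TAZ (Wwtr1), which the Hippo kinases keep out of the nucleus, or Vestigial-like proteins (Vgll genes), which compete for the same surface. TEAD sites, named MCAT elements in muscle, occur in many muscle gene promoters, and Tead4 is a known target of the myogenic factors MyoD and myogenin, which bind E-boxes. Tead2 is known for its expression in embryonic neural progenitors.

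Per RefSeq on GRCm38.p6, Tead1 lies at chr7:112679356-112906784 and Tead2 at chr7:45215792-45233468, so the 2 deleted genes share a chromosome. Tead3 lies at chr17:28331671-28350805 and Tead4 at chr6:128227143-128300813. The 250 bases upstream of the outermost start were read for Tead2 (chr7:45215542-45215791, plus strand) and Tead3 (chr17:28350806-28351055, minus strand), to see whether either carries a TEAD-type motif at its own start. Upstream sequences of Tead1 and Tead4 were not found in the reference used, so their motifs were not read. Capitals mark the TEAD core GGAATG on either strand.
Tead2: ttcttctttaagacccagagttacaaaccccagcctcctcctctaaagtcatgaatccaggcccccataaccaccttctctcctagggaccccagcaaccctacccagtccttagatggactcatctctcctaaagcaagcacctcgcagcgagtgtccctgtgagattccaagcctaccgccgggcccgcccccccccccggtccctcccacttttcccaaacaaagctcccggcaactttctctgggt
Tead3: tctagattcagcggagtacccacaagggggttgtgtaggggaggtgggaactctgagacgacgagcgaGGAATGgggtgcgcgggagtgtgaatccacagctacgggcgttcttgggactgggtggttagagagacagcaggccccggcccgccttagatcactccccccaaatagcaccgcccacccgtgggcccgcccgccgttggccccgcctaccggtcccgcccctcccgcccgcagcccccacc
The Tead2 window held no GGAATG and no E-box (CANNTG), and its GC content was 57.2%. The Tead3 window held 1 GGAATG and no E-box, at a GC content of 67.6%. The windows before 2 further annotated Tead3 starts, not printed here, held 2 and 0 copies of that core, no E-box, and GC contents of 76.8% and 72.0%, so the motif count depends on which start is taken. Of all 32851 windows of this length, 12.6% held GGAATG and 66.2% held CANNTG on either strand, and the median GC content was 52.4%. Neither motif contains the other.

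Values are CPM, a gene's counts relative to its library's total, scaled by the trimmed mean of M-values (TMM), with no correction for transcript length. Levels are therefore compared between samples and never between the 4 genes. A gene was called at an adjusted p under 0.05 in edgeR's quasi-likelihood test over all genes tested, and log2 changes carry their standard error. Bulk libraries held 2.81e+07 to 6.45e+07 expected counts and the P7 sums 9.03e+07 to 2.12e+08 UMIs (unique transcript molecules) from 4779 to 10710 barcodes. All 4 genes passed the filter on low counts in every comparison. Tead4 did so only through the mutants in the P7 sums outside the lineage without endothelial-like cells, given below. Each library is 1 animal, so p-values measure the spread between animals. Insm1 itself lay at 30.8 to 71.5 CPM in Insm1 controls and 8.39 to 16.1 CPM in Insm1 mutants at P2. Atoh1, the granule progenitor gene that drives Cre, was detected in every group, at 16.3 to 30.1 CPM at P2.

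At P2 the gene totals of the targeted genes did not pass the test in the Tead1/2 mutants. Tead1 was 54.2, 46.4 and 33.4 CPM in the Tead1/2 controls and 39.1, 38.1, 50.7 and 43.5 CPM in the mutants. Tead2 was 23.6, 25.7 and 21.5 CPM in controls and 19.2, 20.1, 17.6 and 26.2 CPM in mutants. The ranges overlapped for both genes, and the highest Tead2 value of the line belonged to the library labelled Tead1/2 mutant 4. Counts per gene do not separate the deleted exons from the rest of the transcript. In bulk tissue, fewer cells of a type and less RNA per cell cannot be told apart.

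After the Tead1/2 deletion at P2, edgeR's test called none of the 4 genes, while DESeq2 called Tead4. edgeR called 0 of 20247 genes there (0% called, with 4052 at an unadjusted p under 0.05, and 960 by DESeq2). The log2 change was -0.09 ± 0.14 for Tead1 (adjusted p = 0.746) and -0.22 ± 0.12 for Tead2 (adjusted p = 0.314). Without the library labelled Tead1/2 mutant 4, 3.19% of genes were called and Tead2 was among them, lower by a log2 change of -0.35 ± 0.07 (adjusted p = 0.0417). This library was singled out after its control-like Tead4 and muscle transcript levels were seen. It also held the highest Tead2 of the line, so calls without it are descriptions. Sex read from the data was female for this library, male for mutants 1 to 3, and male, female and male for the controls. Tead1 remained near 0 without it, at -0.10.

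Tead4, which takes part in skeletal muscle differentiation, was the family member called by edgeR in a deletion at P2 with all libraries, in the Insm1 line. It lay at 1.13, 1.10, 1.18 and 0.805 CPM in Insm1 controls and 1.97, 2.23, 2.23 and 2.37 CPM in Insm1 mutants. In the Tead1/2 line it was 0.852, 0.782 and 0.752 CPM in controls and 2.42, 2.55, 3.08 and 0.548 CPM in mutants. All 4 Insm1 mutants exceeded all 4 Insm1 controls, while the library labelled Tead1/2 mutant 4 lay below every Tead1/2 control. These levels rest on 17 to 156 counts per library.

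After the Insm1 deletion Tead4 rose 1.06 ± 0.17 on the log2 scale (adjusted p = 0.0180), where 0.689% of 19582 genes were called. The size of this change was steady, from 0.96 to 1.12 over 8 fits with 1 library left out, but the call held in only 2 of them. It was lost without Insm1 control 1, 2 or 4 or Insm1 mutant 2, 3 or 4 (adjusted p up to 0.0753), and DESeq2 gave 1.06 with an adjusted p of 5.99e-05. With a term for sex, read from the data as female in all 4 controls and male in Insm1 mutants 3 and 4, it was 1.00 (adjusted p = 0.112). The call was also lost with the replicate number as a block (1.07, adjusted p = 0.136) and in 1 fit over all 15 libraries (1.06, adjusted p = 0.196). In the Tead1/2 line the Tead4 change was 1.42 ± 0.44 (adjusted p = 0.138) with all libraries in edgeR. It passed at 1.41 with DESeq2 (adjusted p = 0.0204). In edgeR with no filter on low counts it passed at 1.43 (adjusted p = 0.000327), a setting under which 1287 genes were called. Without the library labelled Tead1/2 mutant 4 it passed at 1.71 ± 0.18 (adjusted p = 0.00111), where 3.19% of genes were called. The last value is a description, since that library held the lowest Tead4 of the line and was singled out with this known.

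Skeletal muscle transcripts moved with Tead4 across the P2 libraries. The summed level of 22 muscle marker genes, of which 17 to 22 were detected per library, was 41.2 to 67.4 CPM in Insm1 controls and 195 to 310 CPM in Insm1 mutants. It was 46.9 to 54.3 CPM in Tead1/2 controls, 199, 256 and 271 CPM in Tead1/2 mutants 1 to 3, and 48.9 CPM in the library labelled Tead1/2 mutant 4. Myog, a regulator of muscle differentiation, was 0 to 3.92 CPM in Insm1 controls and averaged 26.1 ± 6.57 CPM (SD, n = 4) in Insm1 mutants. Other marker sums moved in the Insm1 line at P2 too, without overlap between the groups. Endothelial markers were 175 to 192 CPM in controls against 125 to 166 CPM in mutants, granule progenitor markers were 1289.6 to 1401 against 1085 to 1163 CPM, and granule neuron markers 811 to 955 against 644 to 774 CPM. The groups of the Tead1/2 line overlapped in all 3 of these sums. For granule neuron markers the overlap rested on the library labelled Tead1/2 mutant 4 (760 CPM). Mutants 1 to 3 were 635, 691 and 712 CPM and the controls 729 to 832 CPM. Astroglial markers were 3490, 3358 and 3636 CPM in mutants 1 to 3 and 3121 CPM in that library, against 2943 to 3163 CPM in controls. The part of any of these cell types in the Tead4 result was not tested at P2.

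Tead3 stayed near 4 to 5 CPM at P2. It was 4.99, 4.57, 4.03 and 5.04 CPM in Insm1 controls and 4.37, 4.56, 4.00 and 5.05 CPM in Insm1 mutants. In the Tead1/2 line it was 4.74, 4.74 and 4.65 CPM in controls and 4.04, 4.39, 3.38 and 3.67 CPM in mutants, so that the mutants lay lower without overlap. The log2 change of -0.31 ± 0.12 did not pass (adjusted p = 0.190), and after the Insm1 deletion it was -0.04 (adjusted p = 0.937). Tead1 and Tead2 did not pass after the Insm1 deletion either, with log2 changes of -0.23 ± 0.25 (adjusted p = 0.809) and -0.14 ± 0.07 (adjusted p = 0.608). Tead1 was 102, 87.8, 61.5 and 98.1 CPM in Insm1 controls and 38.7, 93.8, 74.7 and 88.6 CPM in mutants, the widest spread of the family. Tead2 was 84.9, 75.0, 79.8 and 72.3 CPM in Insm1 mutants. No member was called for a difference between the 2 deletions at P2: edgeR called 0 of 20837 genes for that difference (0%, with 1435 at an unadjusted p under 0.05, and 17 by DESeq2).

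**Figure D1:**
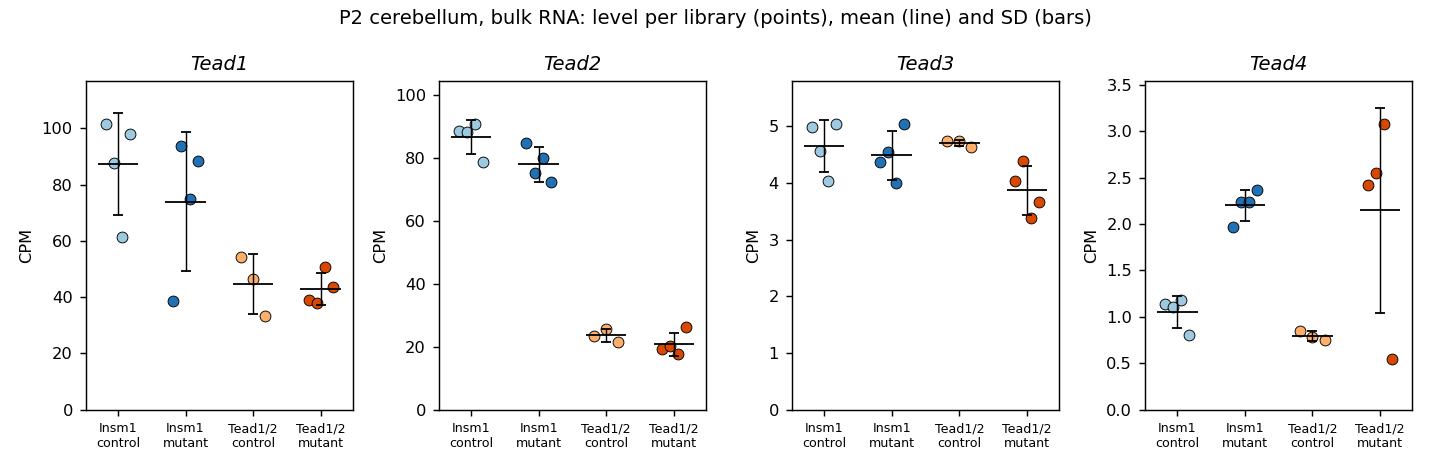
Levels of Tead1 to Tead4 in the 15 bulk libraries at P2, in TMM-scaled CPM on the vertical axis, with 1 point per library, the group mean as a line and the SD as bars. Tead4 is higher in all 4 Insm1 mutants (1.97 to 2.37 CPM) than in the Insm1 controls, and Tead2 is 72.3 to 90.8 CPM in the Insm1 line and 17.6 to 26.2 CPM in the Tead1/2 line.

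Among the P2 comparisons, the largest difference in a Tead gene lay between the 2 sets of controls, which also serve the deletion comparisons. Tead2 was 88.5, 88.3, 90.8 and 78.8 CPM in Insm1 controls against 23.6, 25.7 and 21.5 CPM in Tead1/2 controls, with no overlap. This is 3.63-fold lower in the controls that carry floxed Tead2 (log2 difference -1.86 ± 0.11, adjusted p = 2.13e-08), where 8.37% of 20837 genes were called. Tead1 was also lower in the Tead1/2 controls, by a log2 difference of -0.95 ± 0.25 (adjusted p = 0.0295). That call held in 9 of 15 fits with 1 library left out (-1.10 to -0.80, adjusted p 0.00212 to 0.152). It was lost without Insm1 control 1, 2 or 4 or without any 1 of the 3 Tead1/2 controls, and with the replicate number as a block (-0.89, adjusted p = 0.0796). Tead3 and Tead4 did not pass, at 0.03 (adjusted p = 0.897) and -0.39 (adjusted p = 0.549).

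The lower Tead2 of the Tead1/2 controls was also present at P7, where both lines share a labelled batch. Tead2 was 65.2 and 63.4 CPM in Insm1 controls and 29.8 and 32.0 CPM in Tead1/2 controls, 2.07-fold lower (log2 difference -1.05 ± 0.10, adjusted p = 0.000671), where 4.49% of 24602 genes were called. Tead1 differed little, at 602 and 569 against 626 and 633 CPM (0.11, adjusted p = 0.388). Neither Tead3 (0.22, adjusted p = 0.249) nor Tead4 (0.02, adjusted p = 0.963) passed.

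Genes beside Tead2 differed between the control lines as well. Among the 10 tested genes on each side of Tead2, 6 of 20 were called at P2 and 5 of 20 at P7, against 8.37% and 4.49% of all genes. Slc6a16, the second tested gene after Tead2, was higher in Tead1/2 controls by 3.33 (P2) and 2.45 (P7) on the log2 scale, and Aldh16a1 by 0.33 and 1.01. Dkkl1, the tested gene directly before Tead2, was lower by a log2 difference of -1.80 at P2. At P7 the differences of the 20 genes, called or not, ran from -4.49 to 2.45. Of the 20 genes around Tead1, 1 was called at P2 (Parva, -0.33) and 0 at P7. Strain background and the floxed allele cannot be told apart with these controls. The genes beside Tead1 and Tead2 were examined after the control difference was known.

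**Figure D2:**
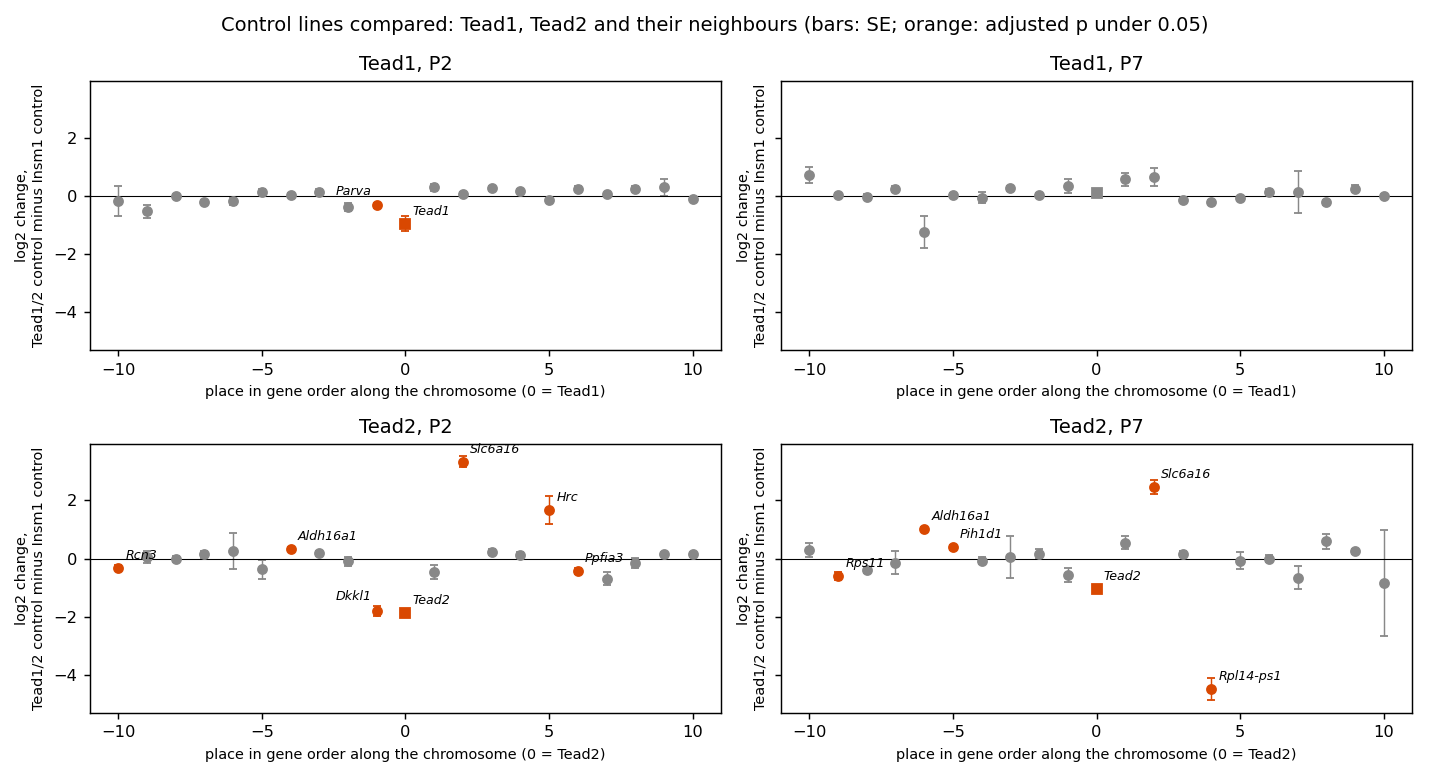
Log2 difference between Tead1/2 and Insm1 controls (vertical axis, with standard error) for Tead1, Tead2 and the 10 tested genes on each side of them, in chromosome order (horizontal axis), at P2 and P7. Called genes are orange: around Tead2 they are 6 of 20 at P2 and 5 of 20 at P7, in both directions, and around Tead1 they are 1 and 0.

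At P7 the whole-cerebellum sums changed for all 4 members in both mutants. Tead1 was 626 and 633 CPM in Tead1/2 controls and 1168, 1319 and 1132 CPM in Tead1/2 mutants. Tead2 fell from 29.8 and 32.0 CPM to 9.09, 7.69 and 7.31 CPM. Tead4 was 1.63 and 1.26 CPM in controls and 94.7, 106 and 81.8 CPM in mutants. The groups did not overlap for any of these genes, and the targeted Tead1 went up in its own mutant while the targeted Tead2 went down. The share of all genes without overlap was not counted.

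In the Tead1/2 line the log2 changes were 0.93 ± 0.07 for Tead1 (adjusted p = 2.30e-06), -1.95 ± 0.09 for Tead2 (adjusted p = 7.38e-08) and 6.01 ± 0.17 for Tead4 (adjusted p = 6.51e-09). These are 1.91-fold higher, 3.87-fold lower and 64.4-fold higher. Tead3 rose from 4.75 and 4.40 CPM to 5.39, 5.81 and 6.11 CPM (0.33 ± 0.10, adjusted p = 0.0175). In this comparison 48.6% of 24602 genes were called, so 4 of 4 members called is a share to be read against a high background. Of the 4, Tead4 alone moved by more than 2 log2 units.

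The Insm1 deletion moved all 4 genes in the same directions. Tead4 was 1.31 and 1.58 CPM in Insm1 controls and 41.0, 41.7 and 44.2 CPM in mutants, 29.5-fold higher (4.88 ± 0.16, adjusted p = 2.54e-08), where 33.9% of genes were called. Tead1 went from 602 and 569 CPM to 726, 723 and 721 CPM (0.32 ± 0.07, adjusted p = 0.00449). Tead2 went from 65.2 and 63.4 CPM to 49.0, 48.0 and 46.9 CPM (-0.41 ± 0.09, adjusted p = 0.00410). Tead3 rose from 3.90 and 4.03 CPM to 4.83, 4.67 and 5.41 CPM (0.34 ± 0.10, adjusted p = 0.0205). That call was lost when barcodes with a doublet score above 0.05, which may hold more than 1 cell, were removed (0.33, adjusted p = 0.0996). Controls and mutants did not overlap for any of the 4 genes. The share of all genes without overlap was not counted here either, so this separation is a description.

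The 2 deletions differed in size for 3 of the 4 genes, where 3.68% of genes were called. Tead1 rose more in the Tead1/2 line, by 0.62 ± 0.09 (adjusted p = 0.00961), and Tead2 fell more, by a log2 difference of -1.54 ± 0.12 (adjusted p = 0.000966). Tead4 rose more by 1.13 ± 0.20 (adjusted p = 0.0155). With doublets removed by score the Tead4 difference was 0.56 ± 0.27 (adjusted p = 0.323), and it also missed the threshold without Insm1 control 2 (1.00) or without Tead1/2 control 2 (0.98). For Tead3 the difference was -0.01 ± 0.14 (adjusted p = 0.975).

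**Figure D3:**
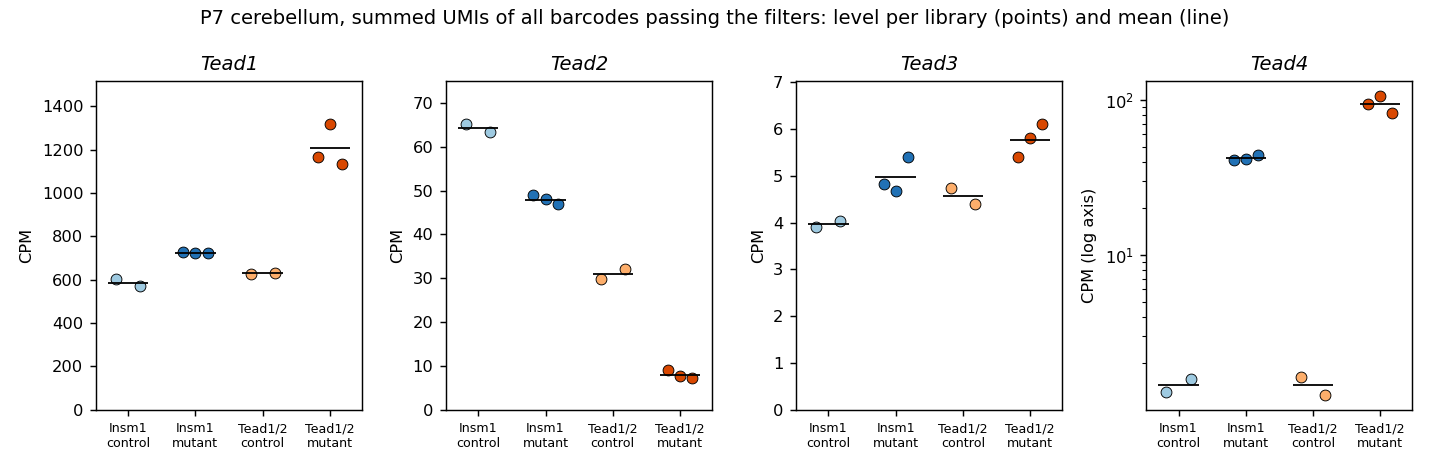
Levels of Tead1 to Tead4 in the 10 libraries at P7, as TMM-scaled CPM of UMIs summed over all barcodes that passed the filters (vertical axis), with 1 point per library and group means as lines (the Tead4 axis is logarithmic). Tead4 lies at 1.63 CPM or less in the 4 controls, 41.0 to 44.2 CPM in Insm1 mutants and 81.8 to 106 CPM in Tead1/2 mutants, and Tead2 is lowest in Tead1/2 mutants.

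Muscle transcripts again moved with Tead4. The summed level of the 22 muscle genes lay between 76.0 and 91.0 CPM in controls and between 6236 and 7415 CPM in mutants of the Insm1 line. It was 68.1 to 81.4 CPM in Tead1/2 controls and 14282 to 22813 CPM in mutants. At least 21 of the 22 were detected in every library. Markers of the other cell types moved as well. The 8 granule progenitor markers summed to 2831 to 2855 CPM in Tead1/2 controls and 1204 to 1438 CPM in mutants, and to 2635 to 2695 against 1520.5 to 1674 CPM in the Insm1 line. The 8 granule neuron markers were 3939.95 to 4775 CPM against 1575 to 1765 CPM in the Tead1/2 line, and 4187 to 5200.05 CPM against 2453 to 3243.5 CPM in the Insm1 line. Lower granule cell markers thus accompanied the lower Tead2 sums in both lines.

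Markers of cell types outside the lineage were higher or level in mutants. The 6 meningeal fibroblast markers summed to 99.3 to 103 CPM in Tead1/2 controls and 166 to 313 CPM in mutants, and to 95.3 to 99.6 against 111 to 144 CPM in the Insm1 line. The 9 astroglial markers were 624.9 to 715 against 768 to 947 CPM in the Tead1/2 line and 853 to 1004 against 1100.15 to 1256 CPM in the Insm1 line. The 6 endothelial markers were 67.3 to 112 CPM over the 4 groups, whose ranges overlapped. All genes of these 5 lists were detected in every library, and their part in the changes of the 4 Tead sums was not tested. The single-cell data allowed the members to be read within cell classes.

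After removal of likely doublets, 47644 of 79838 barcodes were clustered, with the Tead genes left out, and clusters were named from marker genes. The share removed was higher in controls: 47.3% and 48.6% in Insm1 controls against 35.1%, 40.1% and 46.2% in their mutants. In the Tead1/2 line it was 41.5% and 41.9% in controls against 26.6%, 39.1% and 34.9% in mutants. The removed barcodes were deeper, with a median per library of 17430 to 27458 UMIs against 4463.5 to 7832 UMIs in those kept. Values by class therefore leave out a large part of the UMIs in the whole-cerebellum sums. The granule lineage (progenitor-like and neuron-like clusters) was summed per library, as were the classes with no known Atoh1Cre activity: GABAergic interneuron-like, Purkinje-like, astroglia-like, oligodendrocyte-like, microglia-like, endothelial-like and meningeal fibroblast-like. Mutant granule cells fell mostly into other clusters than control ones, so the values compare the lineage and not matched stages. Clusters 3, 4, 6 and 8 held most control cells of the lineage, and clusters 1, 2, 7, 27, 29 and 30 held almost only mutant cells. Another 5569 cells lay in 3 unnamed clusters and enter neither sum. Of these, clusters 0 and 5 matched the granule progenitor markers best, in a tie with another list. They held 389 and 1033 cells of Insm1 controls and 134 and 236 of Insm1 mutants. Cells of Tead1/2 controls there numbered 414 and 1256, and those of Tead1/2 mutants 203 and 629. Tead1 was 915 and 797 CPM in these clusters, so the lineage sums leave out control cells with high Tead1.

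Within the granule lineage, Tead1 was higher and Tead2 lower in Tead1/2 mutants, and Tead4 was higher in both mutants. Tead1 was 533 and 531 CPM in Tead1/2 controls and 1319, 1390 and 1325 CPM in mutants (1.36 ± 0.07, adjusted p = 5.11e-08), where 20.03% of 16228 genes were called. Tead2 was 32.5 and 35.7 CPM against 11.03, 10.0 and 10.6 CPM (-1.67 ± 0.09, adjusted p = 5.95e-08). Tead4 was 0.777 and 0.711 CPM against 11.6, 13.3 and 15.5 CPM (4.18 ± 0.19, adjusted p = 2.17e-08). Tead3 did not pass, at 2.91 and 4.01 CPM against 2.84, 2.62 and 3.05 CPM (-0.25, adjusted p = 0.578).

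After the Insm1 deletion Tead4 and Tead1 were higher in the granule lineage. Tead4 was 0.805 and 0.640 CPM in Insm1 controls and 11.1, 11.8 and 11.4 CPM in mutants (3.96 ± 0.20, adjusted p = 5.35e-08), where 18.3% of genes were called. Tead1 rose from 486 and 471 CPM to 612, 651 and 666 CPM (0.44 ± 0.07, adjusted p = 0.000461). Tead2 was 64.5 and 70.1 CPM in controls and 57.0, 56.4 and 58.1 CPM in mutants, a change of -0.22 ± 0.08 that did not pass (adjusted p = 0.0759) except at a coarser clustering (-0.25) or without Insm1 control 1 (-0.32). Tead3 was -0.10 (adjusted p = 0.852). Between the control lines, Tead2 was 1.98-fold lower in Tead1/2 controls in this lineage (-0.98 ± 0.09, adjusted p = 0.000158), where 0.980% of genes were called. Tead1 (0.15), Tead3 (0.38) and Tead4 (0.02) did not pass.

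Outside the Atoh1 lineage the Tead1 result differed with the doublet removal. With doublet scores above 0.05 removed it did not pass in either deletion. It was 639 and 652 CPM in Tead1/2 controls and 544, 543 and 557 CPM in mutants (-0.26 ± 0.10, adjusted p = 0.216), where 1.83% of 16108 genes were called. The sum mixes classes. GABAergic interneuron-like, microglia-like and oligodendrocyte-like cells numbered 1193, 239 and 207 in controls and 2210, 785 and 810 in mutants. Tead1 within these classes averaged 968, 42.4 and 79.4 CPM in controls and 984, 46.3 and 125 CPM in mutants. In astroglia-like, meningeal fibroblast-like and endothelial-like cells it was 485, 578 and 475 against 527, 553 and 426 CPM. The part of class numbers was not tested. With only the highest 4% of doublet scores removed and the cells clustered again, the Tead1 change was 0.58 ± 0.11 (adjusted p = 0.00179) in this line and 0.19 ± 0.11 (adjusted p = 0.209) after the Insm1 deletion. That limit also raised the number of genes called outside the lineage, from 294 to 8736 after the Tead1/2 deletion and from 44 to 6649 after the Insm1 deletion, so a call there is read against a high background. With scores above 0.05 removed, Tead2 did pass, at 16.1 and 17.5 CPM in controls and 9.98, 10.3 and 7.41 CPM in mutants (-0.89 ± 0.14, adjusted p = 0.0235). That call was lost without Tead1/2 control 1 (adjusted p = 0.0854) or 2 (adjusted p = 0.216). After the Insm1 deletion, at the same limit, 0.273% of genes were called, and no member: Tead1 was -0.16 (adjusted p = 0.567), Tead2 -0.43 (adjusted p = 0.218), Tead3 0.07 (adjusted p = 0.921) and Tead4 1.44 (adjusted p = 0.266).

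Tead2 separated the control lines outside the lineage too. It was 49.9 and 52.2 CPM in Insm1 controls and 16.1 and 17.5 CPM in Tead1/2 controls, 3.08-fold lower (-1.62 ± 0.15, adjusted p = 0.000887), where 10.4% of genes were called. The lower level appeared in every class with enough cells: 47.4 against 21.3 CPM in GABAergic interneuron-like cells, 57.8 against 17.4 CPM in astroglia-like cells and 81.6 against 17.3 CPM in meningeal fibroblast-like cells. With only the highest 4% of doublet scores removed, these were 61.0 against 26.7, 61.3 against 28.8 and 64.3 against 28.3 CPM. None of these control animals carries Cre.

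Tead4 outside the lineage differed with the doublet removal in both lines, and with the endothelial-like cells in the Tead1/2 line. It was 6.90 and 4.24 CPM in Tead1/2 controls and 4.68, 8.06 and 4.28 CPM in mutants (-0.03 ± 0.37, adjusted p = 0.984). In the Insm1 line it was 1.44 ± 0.47 (adjusted p = 0.266). Without endothelial-like cells the changes were 2.32 (Tead1/2 line) and 1.16 (Insm1 line), which are descriptions. The Tead1/2 controls then held 3 (GABAergic interneuron-like), 1 (oligodendrocyte-like), 1 (microglia-like), 1 (meningeal fibroblast-like) and 0 (astroglia-like) Tead4 UMIs. In the Insm1 controls these were 3, 2, 0, 3 and 2, so Tead4 passed the filter on low counts there only through the mutants. When only the highest 4% of doublet scores were removed and the cells clustered again, all outside classes were summed. The Tead4 change was then 4.52 (adjusted p = 8.66e-06) in the Tead1/2 line and 3.90 (adjusted p = 2.83e-05) in the Insm1 line. The 8736 and 6649 genes called there are the background.

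The change in the granule lineage minus the change outside it was tested with the library as a block. The sums outside the lineage mix classes whose cell numbers differ between groups, and the part of this mix was not tested. In the Tead1/2 line 10.3% of 18383 genes were called, and Tead1 differed by 1.61 ± 0.12 (adjusted p = 2.02e-06), Tead2 by -0.78 ± 0.15 (adjusted p = 0.00368) and Tead4 by 4.23 ± 0.46 (adjusted p = 5.68e-05). With only the highest 4% of doublet scores removed, 4816 genes were called in place of 1893, and Tead1 kept its call (0.51, adjusted p = 0.000361), whereas Tead2 (0.03) and Tead4 (-0.36) did not. Without endothelial-like cells the Tead4 difference was 1.85 and did not pass, a description because the controls then held few Tead4 UMIs outside the lineage. In the Insm1 line 8.07% of genes were called, with Tead1 at 0.59 ± 0.12 (adjusted p = 0.00706) and Tead4 at 2.55 ± 0.61 (adjusted p = 0.0204). Both were lost under the milder doublet removal (0.09 and 0.02, with 2516 genes called in place of 1483), and Tead1 also without Insm1 control 1 (0.52). Tead3 did not pass in either line (-0.30 and -0.21), nor Tead2 in the Insm1 line (0.19).

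The remaining values by class are descriptions, given as unscaled CPM of each class. Over the 4 control libraries Tead1 was highest in GABAergic interneuron-like cells (958.6 ± 23.1 CPM, SD, n = 4). Cells of the unnamed clusters came next (783 ± 10.6 CPM), and the other named classes were lower. Meningeal fibroblast-like (542 ± 45.8), granule-lineage (498 ± 35.5), astroglia-like (492.5 ± 16.6) and endothelial-like cells (464 ± 30.05, n = 3) followed within about 1 SD of their neighbours. Oligodendrocyte-like (110 ± 38.0) and microglia-like cells (64.8 ± 40.7) were lowest and did not differ beyond their spread. This order differed with the doublet removal. With only the highest 4% of doublet scores removed, Tead1 in controls of the Insm1 and Tead1/2 lines averaged 484 and 440 CPM in oligodendrocyte-like cells and 506 and 452 CPM in microglia-like cells, against 545 and 614 CPM in the granule lineage and 658 and 726 CPM in GABAergic interneuron-like cells.

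Tead3 had another order. It was highest in meningeal fibroblast-like (21.7 ± 15.01 CPM, SD, n = 4) and astroglia-like cells (16.9 ± 3.55), which overlap, and lower in microglia-like (7.11 ± 1.63), GABAergic interneuron-like (5.79 ± 1.98) and granule-lineage cells (3.01 ± 0.67). Endothelial-like and oligodendrocyte-like cells held 3 Tead3 UMIs each over all controls. Tead3 in astroglia-like cells was 16.1 to 19.1 CPM on average in all 4 groups. That level differed with the doublet removal: with only the highest 4% of doublet scores removed, it was 6.18 CPM in controls and 10.03 CPM in mutants of the Insm1 line, and 9.01 and 13.2 CPM in those of the Tead1/2 line. In meningeal fibroblast-like cells it fell from 17.4 to 7.77 CPM in Insm1 controls and from 26.0 to 11.9 CPM in Tead1/2 controls. Mutants there fell from 27.4 to 7.84 CPM (Insm1) and from 31.3 to 14.6 CPM (Tead1/2).

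Tead4 in the controls was highest in endothelial-like cells. It was 54.6 ± 13.6 CPM (SD, n = 3 libraries with at least 20 such cells) there, from 90 UMIs, and 1.85 CPM or less on average in every other class. In endothelial-like cells of the mutants it was 87.0 ± 35.3 CPM (Insm1, n = 3) and 80.6 ± 13.2 CPM (Tead1/2, n = 3). The ranges of the Tead1/2 line overlapped, at 66.8 to 93.1 CPM in mutants and 47.0 to 70.4 CPM in controls. The Insm1 line had 1 control library with enough cells, at 46.5 CPM from 6 UMIs, below its mutants (52.6 to 123 CPM). With only the highest 4% of doublet scores removed, endothelial-like cells held Tead4 at 18.2 and 35.02 CPM in Insm1 and Tead1/2 controls and at 54.4 and 81.4 CPM in the mutants.

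**Figure D4:**
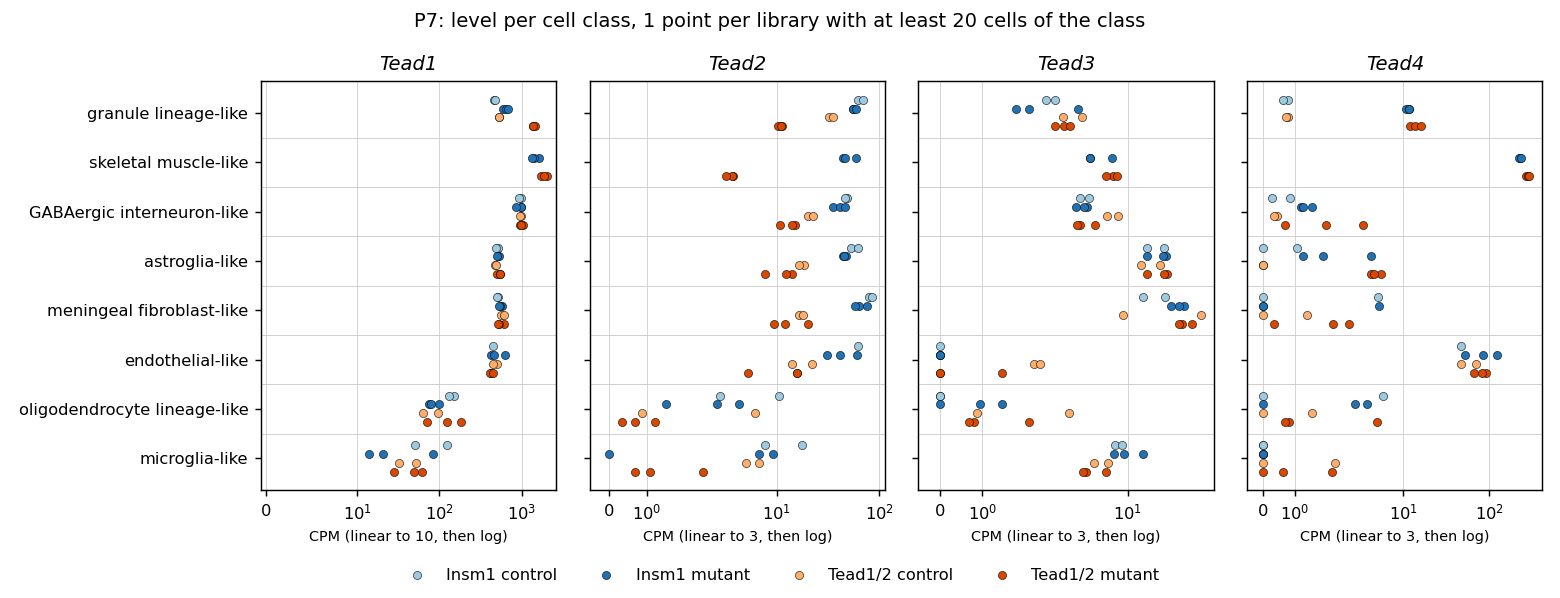
Level of each Tead gene per cell class at P7, as CPM of the class's UMIs (horizontal axis, linear near 0 and then logarithmic), with 1 point per library that has at least 20 cells of the class and colours for the 4 groups. Tead4 is near 55 CPM in endothelial-like cells of controls and reaches 223 to 293 CPM in muscle-like cells of mutants, and Tead2 is lower in the Tead1/2 line in nearly every class. Unnamed clusters are not shown.

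Muscle-like cells numbered 1188 in Insm1 mutants, 2627 in Tead1/2 mutants, 6 in Insm1 controls and 0 in Tead1/2 controls. These counts and the levels below leave out the unnamed cluster 26 (326 cells of Insm1 and 947 of Tead1/2 mutants). That cluster matched 17 of the 22 muscle markers and held 43818 CPM of muscle transcripts. Tead4 was 227, 223 and 234 CPM in those of Insm1 mutants (lowest 223, highest 234, mean 227.8 ± 5.65, SD) and 281.9 ± 12.6 CPM (SD, n = 3) in those of Tead1/2 mutants. Tead1 was 1458 ± 157 CPM and 1867 ± 164 CPM (SD, n = 3). Tead2 was 50.2 ± 8.26 CPM in Insm1 mutants, near its level in the granule lineage of those animals (56.6 ± 2.18), and 3.56 ± 0.27 CPM in Tead1/2 mutants. Tead3 was low in both, at 5.59 ± 1.48 and 7.30 ± 0.81 CPM. With only the highest 4% of doublet scores removed, Tead4 in muscle-like cells averaged 103 CPM in Insm1 mutants and 191 CPM in Tead1/2 mutants, and Tead1 843 and 1361 CPM.

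Because the clusters are defined on the same cells, the test used cells chosen by muscle transcripts alone. Each cell was thinned to 2000 UMIs, and cells with UMIs of at least 3 of the 22 muscle genes were called positive, a list that holds no Tead gene. Positive cells made up 9.64% to 10.5% of cells in Insm1 mutants, 18.7% to 25.6% in Tead1/2 mutants and 0.127% to 0.218% in controls (32 cells). Among the 6 mutant libraries 68.6% of 14580 genes differed between positive and negative cells.

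Tead4 was higher in positive cells in 6 of 6 libraries. In Insm1 mutants it was 234, 252 and 227 CPM in positive cells and 11.6, 10.7 and 17.8 CPM in negative cells. In Tead1/2 mutants it was 287, 298 and 322 CPM against 12.2, 13.8 and 13.9 CPM. The paired log2 difference was 4.45 ± 0.12 (adjusted p = 8.11e-14). Negative cells of the controls averaged 0.65 ± 0.75 CPM (SD, n = 2) in the Insm1 line and 1.497 ± 0.19 CPM in the Tead1/2 line, so negative mutant cells stood above them without overlap.

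Tead1 was also higher in positive cells. It was 1676, 1582 and 1592 CPM against 672, 691 and 690 CPM in Insm1 mutants, and 2555, 2824 and 2695 CPM against 1209, 1207 and 1070 CPM in Tead1/2 mutants (1.29 ± 0.07, adjusted p = 1.91e-10). Tead2 was lower in positive cells (-0.78 ± 0.20, adjusted p = 0.00260), averaging 38.7 against 49.7 CPM in Insm1 mutants and 2.86 against 10.7 CPM in Tead1/2 mutants. Without thinning the Tead2 difference was -0.22 and did not pass. Tead3 did not pass (0.32, adjusted p = 0.240).

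Tead1 and Tead4, which were both higher in positive cells, peaked at different numbers of muscle genes. Tead1 in Tead1/2 mutants was 1008 ± 71.4 CPM in cells with no muscle gene, 1431 ± 118 with 1 to 2, 4350 ± 151 with 3 to 5, 2994 ± 194 with 6 to 9 and 1005 ± 60.0 with 10 or more (SD, n = 3). In Insm1 mutants the same bins held 618 ± 14.8, 870 ± 5.91, 2147 ± 113, 1599 ± 121 and 718 ± 56.7 CPM. Tead1 was thus highest at an intermediate number of muscle genes, 3 to 5. The 10-or-more bin lay below the 3-to-5 bin by more than the spread in both lines.

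Tead4 did not show that decline over these bins. In Tead1/2 mutants it was 22.2 ± 1.52 CPM with 1 to 2 muscle genes, 229 ± 35.5 with 3 to 5, 339.5 ± 9.92 with 6 to 9 and 337 ± 16.3 with 10 or more. In Insm1 mutants it was 27.6 ± 10.7, 177 ± 18.1, 246 ± 31.1 and 336 ± 47.4 CPM (SD, n = 3). Its last 2 bins did not differ beyond their spread in Tead1/2 mutants. In cells with 10 or more muscle genes, 45.0% ± 2.32 of cells in Tead1/2 mutants had a Tead4 UMI at this depth, against 1.41% ± 0.21 of cells with no muscle gene and 0.294% ± 0.08 of such cells in Tead1/2 controls.

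**Figure D5:**
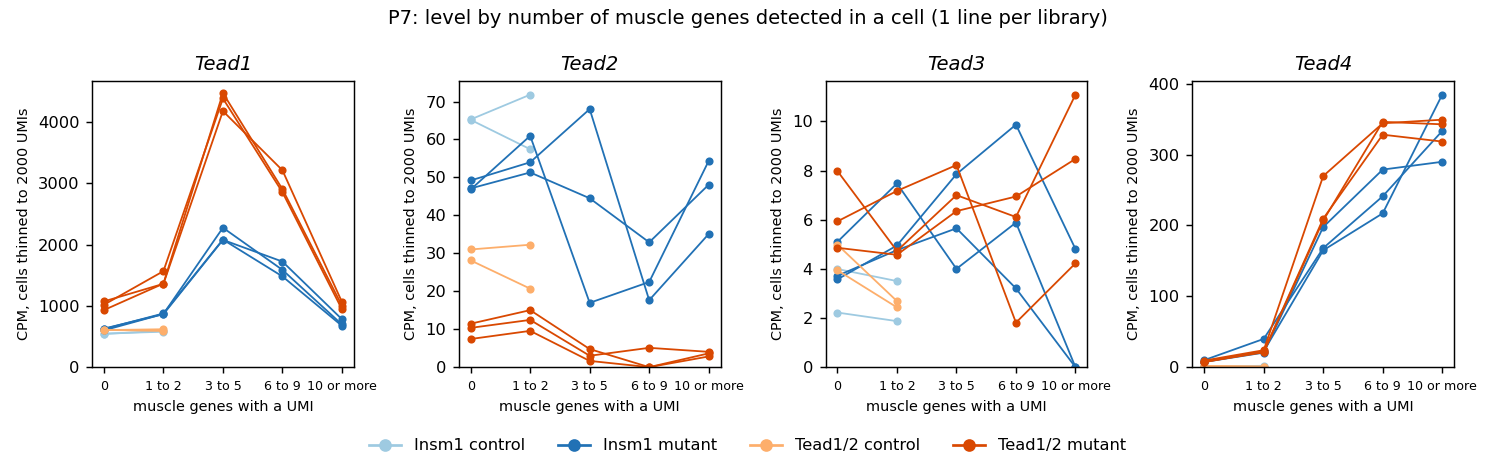
Level of each Tead gene at P7 (CPM, cells thinned to 2000 UMIs, vertical axis) against the number of muscle genes with a UMI in a cell (horizontal axis), with 1 line per library coloured by group. In Tead1/2 mutants Tead1 peaks at 3 to 5 muscle genes (4350 CPM) and falls to 1005 CPM at 10 or more, while Tead4 reaches 339.5 CPM at 6 to 9 genes and stays there.

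In the muscle clusters, with cells at full depth, Tead1 again differed widely between clusters. Cluster 25, led among others by Myog, held Tead1 at 2321 ± 71.3 CPM in Insm1 mutants and 5250 ± 184 CPM in Tead1/2 mutants (SD, n = 3). Cluster 28, led by Myh8, a myosin heavy chain gene of developing muscle, held it at 539 ± 41.8 and 819 ± 29.1 CPM. Tead4 was 187 ± 16.1 and 257 ± 27.03 CPM in cluster 25 and 280 ± 19.2 and 289 ± 9.83 CPM in cluster 28. Cluster 26 stayed unnamed, because its leading genes include Acta2, a marker of another class. It held Tead1 at 1316 ± 16.8 and 2596 ± 37.2 CPM and the highest Tead4 in Tead1/2 mutants, 358.9 ± 6.12 CPM, above the 289 ± 9.83 CPM of cluster 28 by more than the spread.

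Tead4 was also read in granule-lineage cells that had no UMI of the 22 muscle genes after thinning to 2000 UMIs, which does not show that a cell lacks muscle transcripts. In these cells it was 9.90 ± 0.79 CPM in Insm1 mutants and 10.7 ± 3.31 CPM in Tead1/2 mutants (SD, n = 3), against 0.657 ± 0.62 and 1.10 ± 0.26 CPM in controls (n = 2). GABAergic interneuron-like cells of the same libraries, also without such a UMI, held 1 Tead4 UMI in 1260 cells of Insm1 mutants and 1 in 1401 cells of Tead1/2 mutants. Over all cells of a class at full depth, summed muscle transcripts were 170 to 209 CPM in granule-lineage and 116 to 174 CPM in GABAergic interneuron-like cells of Insm1 mutants, and 315 to 990 and 248 to 618 CPM in those of Tead1/2 mutants, against 64.0 to 100.1 CPM in controls. With only the highest 4% of doublet scores removed, Tead4 at full depth was 21.3 and 31.2 CPM in GABAergic interneuron-like cells of Insm1 and Tead1/2 mutants, above the 12.1 and 12.02 CPM of their granule lineage. The part of muscle RNA and of doublets in these Tead4 levels was not tested.

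Within the lineage, Tead4 differed by cluster. In cluster 3, a progenitor-like cluster with cells of all 4 groups, it was 7.87 ± 2.94 CPM in Insm1 mutants against 0.885 ± 0.11 in their controls, and 6.29 ± 2.91 CPM in Tead1/2 mutants against 0.397 ± 0.08 (SD, n = 2 or 3). In cluster 6, a neuron-like cluster with cells of all groups, it was 0 in 250 cells of Insm1 mutants and 2.08 ± 1.13 CPM in Tead1/2 mutants. The highest granule-lineage levels lay in clusters made almost only of mutant cells, at 20.5 ± 3.47 (Insm1 mutants) and 32.9 ± 6.09 CPM (Tead1/2 mutants) in cluster 1 and 24.5 ± 3.32 CPM (Tead1/2 mutants) in cluster 27. Cluster 2, also almost only of mutant cells, was lower, at 7.72 ± 2.84 CPM in Insm1 mutants and a mean of 4.11 CPM in 2 libraries of Tead1/2 mutants. Over all groups, muscle transcripts summed to 845 CPM in cluster 27, 233 in cluster 1, 228 in cluster 2, 151 in cluster 3 and 109 in cluster 6. Cluster 27 matched 4 of the 8 progenitor markers and cluster 1 all 8, with none among the leading genes of either. The part of muscle RNA in these Tead4 levels was not tested.

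Tead1 within the lineage followed a like division. In cluster 3 it was 571 ± 25.04 CPM in controls and 673 ± 19.9 CPM in mutants of the Insm1 line, and 597 ± 13.2 and 782 ± 15.9 CPM in those of the Tead1/2 line. In the neuron-like cluster 6 the Tead1/2 values were 557 ± 8.38 and 570 ± 68.4 CPM, within their spread. In clusters 7 and 29 it reached 2063 ± 142 and 1972 ± 164 CPM in Tead1/2 mutants and 1252 ± 79.0 and 981 ± 27.2 CPM in Insm1 mutants. It was lower in the neuron-like cluster 2, also made almost only of mutant cells, at 421 ± 36.4 CPM in Insm1 mutants (735 cells), below the 509 ± 20.1 CPM of Insm1 controls in cluster 6, and 847.7 ± 0.69 CPM in 2 libraries of Tead1/2 mutants (77 cells). In the progenitor-like cluster 4, shared with controls, it was 651 ± 14.5 CPM in controls and 929 ± 94.9 CPM in mutants of the Tead1/2 line. Higher Tead1 in mutants thus occurred in shared and in mutant clusters, and not in every mutant cluster. Muscle transcripts over all groups were 379 and 758 CPM in clusters 7 and 29, against 151 and 101 CPM in clusters 3 and 4. Their part in these Tead1 levels was not tested.

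Tead1 and Tead2 were higher in cycling granule-lineage cells (UMIs of at least 2 of Mki67, Top2a and Cenpf) than in those with none of these UMIs, in every group. The unnamed clusters 0 and 5, whose leading genes include Cenpf and Top2a, are not among these cells. Thinned Tead2 in cycling against other cells was 114 against 45.1 CPM in controls and 83.1 against 41.7 CPM in mutants of the Insm1 line. In the Tead1/2 line it was 49.4 against 20.6 CPM in controls and 15.4 against 5.22 CPM in mutants. The ratio was 1.70 to 3.81 over the 10 libraries for Tead2 and 1.42 to 2.04 for Tead1. Tead2 was lower in Tead1/2 mutants than in their controls in both kinds of cell. Tead4 in mutants was 14.5 ± 2.21 against 8.33 ± 0.98 CPM (Insm1) and 14.1 ± 2.35 against 13.2 ± 2.82 CPM (Tead1/2), a gap beyond the spread in Insm1 mutants and within it in Tead1/2 mutants, where the difference between lines was not tested.

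Genes of the same pathway were read from fixed lists. Of the 6 TEAD cofactors, Yap1, Wwtr1, Vgll3 and Vgll4 rose in each deletion at P7, where 48.6% (Tead1/2) and 33.9% (Insm1) of all genes were called. Vgll1 did not pass the filter on low counts, and Vgll2 passed it only through the mutants, so its level is a description. Yap1, the coactivator YAP, rose from a mean of 24.4 to 53.6 CPM in the Tead1/2 line (1.13 ± 0.08, adjusted p = 1.84e-06) and from 29.4 to 58.3 CPM in the Insm1 line (1.00 ± 0.08, adjusted p = 7.76e-06). Wwtr1, the coactivator TAZ, rose from 25.3 to 171 CPM (2.74 ± 0.20) and from 26.2 to 78.7 CPM (1.60 ± 0.19). Among these 4 cofactors, Wwtr1 was the only one whose difference between the deletions passed (1.14 ± 0.25, adjusted p = 0.0383), where 3.68% of genes were called.

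Vestigial-like cofactors were higher in mutants too. Vgll2, a cofactor of skeletal muscle, had 1 to 5 UMIs per control library and 329 to 1047 per mutant library, levels of 0.02 CPM against 2.97 ± 0.56 CPM (Insm1 mutants) and 4.13 ± 0.62 CPM (Tead1/2 mutants). Vgll3 rose by 2.88 ± 0.23 (Tead1/2) and 1.87 ± 0.22 (Insm1), and Vgll4, which limits YAP and TEAD activity, by 0.34 ± 0.05 and 0.22 ± 0.05. In muscle-positive against negative cells, Wwtr1 (2.698 ± 0.12), Vgll3 (3.63 ± 0.42) and Vgll4 (0.32 ± 0.10) were higher, while Yap1 did not pass (0.12 ± 0.11, adjusted p = 0.326). In the granule lineage Yap1 rose by 1.54 ± 0.10 (Tead1/2) and 1.52 ± 0.10 (Insm1), next to Tead4. The muscle marker levels given above moved with these cofactors, and their part was not tested.

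Hippo kinases and their regulators showed no shared direction. Of 13 tested, 6 rose and 3 fell after the Tead1/2 deletion (median -0.01) and 3 rose and 3 fell after the Insm1 deletion (median -0.02). Of 21 genes of a YAP and TEAD target signature, 15 rose and 2 fell (median 1.13) and 14 rose and 2 fell (median 0.74), beside medians of 0.06 and 0.04 over all genes and at backgrounds of 48.6% and 33.9%. The genes that rose include Ankrd1, which had 0 to 2 UMIs per control library and passed the filter only through the mutants. The counts and medians that include it are therefore descriptions. Muscle markers moved with this list, from 68.1 to 91.0 CPM in controls to between 6236 and 22813 CPM in mutants, as did meningeal fibroblast markers (99.3 to 103 against 166 to 313 CPM in the Tead1/2 line, 95.3 to 99.6 against 111 to 144 CPM in the Insm1 line), and their part was not tested. Ccn2, a secreted matrix protein and a common readout of YAP activity, rose by 3.43 ± 0.26 after the Tead1/2 deletion and by 1.62 ± 0.24 after the Insm1 deletion. It was 1 of 5 target genes that rose more in the Tead1/2 line (1.81 ± 0.35, adjusted p = 0.0225), with Igfbp3, Myof, Gadd45a and Nt5e, where 3.68% of all genes differed between the deletions. At P2 none of the 3 lists had a called gene in either deletion, where edgeR called 0% (Tead1/2) and 0.689% (Insm1) of all genes, too few to read anything from an empty list. Without the library labelled Tead1/2 mutant 4, where 3.19% of genes were called, Yap1 (0.35, adjusted p = 0.0152) and Amotl2 (0.51, adjusted p = 0.00909) were called in the Tead1/2 line. These calls too are descriptions, because that library was singled out after its levels were seen.

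The genes most like each member were found by Pearson's r of log2 levels. Over 33 class-by-group means at P7 they were Nck2 (0.937), Adgra3 (0.925) and 2700054A10Rik (0.920) for Tead1, and Zic2 (0.809) and Phf21a (0.802), besides 1 gene without a symbol (0.817), for Tead2. For Tead3 they were Bnc2 (0.875), Chsy1 (0.859) and Insig2 (0.846), and for Tead4 Myzap (0.936), Unc45b (0.920) and Bcam (0.903). Over the 15 P2 libraries the genes most like Tead4 were Cdh15 (0.968), Klhl41 (0.952) and Six4 (0.950). The points share libraries and class composition, so these are descriptions.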

How the data were processed

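Bulk RNA of P2 cerebellum (15 libraries) and single cells of P7 cerebellum (10 libraries) were analysed from gene-level tables, and the chromatin libraries of the series were not analysed here. For P2 the authors deposited gene tables of expected counts from RSEM, rounded here to whole numbers, and counts of UMIs per gene and cell for P7. Trim Galore 0.6.3 and 0.4.4, STAR 2.7.9a, RSEM 1.3.3, Seurat 4.4.0, GRCm38.p6 and mm10 are named per the submitters' processing notes, without roles. The 2 P2 tables are each named for the other line than the one their columns hold. Columns were therefore assigned to samples by the column names that the sample descriptions give, and 4 columns of other samples were not used. Of 55665 entries, 92 that name no gene were left out, which held at most 7.1e-06% of a library's counts.

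P7 barcodes with at least 1000 UMIs, 500 genes and under 15% mitochondrial UMIs were kept, at a median of 6866 to 10187 UMIs per barcode. For cell classes, barcodes with a Scrublet score above 0.05 (40.3%) were removed, a limit set after seeing the data because Scrublet's own threshold marked almost none in 3 libraries. Cells were clustered in scanpy 1.11.5 (30 components of 2000 variable genes, 15 neighbours, Leiden resolution 1.0) and named from markers. UMIs were summed per library and class. No barcode was shared between libraries (0).

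Tests used edgeR 4.0.16 (R 4.3.3) quasi-likelihood fits with TMM scaling, filterByExpr and Benjamini-Hochberg adjustment over all genes tested, also for every adjusted p in the text unless DESeq2 1.42.0 is named. Each deletion at P2 was fitted within its line, and the other comparisons over all libraries of that age. The library was a block in the granule-against-outside and muscle-positive tests. Alternatives were the replicate block, DESeq2, other filters, doublet limits, clusterings and leaving out each library. The edgeR test was tried on simulated counts of control and mutant groups with known changes. That simulation did not cover the clustering, the thinning or the fits with blocks. Replicate numbers did not pair the animals (correlations of same-numbered deviations -0.13 to 0.23). The members and gene lists were chosen with earlier results of these data known. Genes named from the lists are the TEAD cofactors and up to 5 called genes of largest change per comparison, and Amotl2 was named after its value was seen.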

Additional observations from a re-analysis of the deposited data

Results flagged for a closer look

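These 8 values stood out because a test of the difference between 2 groups' effects passed. Between the deletions at P7 (Tead1/2 minus Insm1), the log2 changes differed by 0.62 for Tead1, -1.54 for Tead2 and 1.13 for Tead4. Between the granule lineage and the classes outside the Atoh1 lineage, the changes after the Tead1/2 deletion differed by 1.61 for Tead1, -0.78 for Tead2 and 4.23 for Tead4. After the Insm1 deletion they differed by 0.59 for Tead1 and 2.55 for Tead4.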

How the results depend on the processing

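Of the members' results under other settings, 853 kept direction and side of the threshold, 35 no longer passed, 13 newly passed and 34 changed sign. The cause was not tested unless stated. At P2 Tead4 passed in the Tead1/2 line under DESeq2 (1.41), without the filter on low counts (1.43, with 1287 genes called) and with the replicate block (1.71, without mutant 4, which has no same-numbered control). In the Insm1 line it no longer passed with the replicate block (1.07), one fit over all 15 libraries (1.06) or a sex term (1.00), and the control-line difference of Tead1 no longer passed with the block (-0.89). The replicate block changed no other member's call. At P7 Tead3 no longer passed in the Insm1 line without the filter (0.33) or with doublets removed (0.33), and its difference between the deletions turned to 0.0069 and 0.053. The Tead4 difference with doublets removed was 0.56. Tead2 in the granule lineage passed in the Insm1 line at the coarser clustering (-0.25), and the Tead4 control-line difference there was -0.17 with the highest 4% of doublet scores removed. Under that same limit, values outside the Atoh1 lineage were 0.58 (Tead1), 0.40 (Tead3) and 4.52 (Tead4) after the Tead1/2 deletion, 0.19, 0.40 and 3.90 with Tead2 at -0.43 after the Insm1 deletion, and 0.056 (Tead1) and 0.24 (Tead3) between control lines. The granule-minus-outside differences were 0.034 (Tead2), -0.71 (Tead3) and -0.36 (Tead4) for Tead1/2, and 0.090 (Tead1), 0.20 (Tead2) and 0.020 (Tead4) for Insm1. Without endothelial-like cells, Tead4 outside the lineage was 2.32 (Tead1/2) and -0.95 (control lines), and its granule-minus-outside difference was 1.85. These values are descriptions, because the controls then held few Tead4 UMIs outside the lineage. Tead2 in muscle-positive cells was -0.22 without thinning.

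Leaving out 1 library at a time gave these ranges. At P2: Tead1/2 deletion, Tead1 -0.24 to 0.056, Tead2 -0.35 to -0.15 and Tead4 1.22 to 1.71. Insm1 deletion, Tead3 -0.10 to 0.010 and Tead4 0.96 to 1.12. Control lines, Tead1 -1.10 to -0.80 and Tead3 -0.035 to 0.068. Difference of deletions, Tead1 -0.073 to 0.29. At P7: Tead3 0.27 to 0.39 in both deletions, Tead4 between control lines -0.20 to 0.18, and the difference of deletions -0.059 to 0.069 (Tead3) and 0.98 to 1.36 (Tead4). In the granule lineage: Insm1 deletion, Tead2 -0.32 to -0.14 and Tead3 -0.40 to 0.11, and control lines Tead4 -0.089 to 0.18. Outside it: Tead1/2 deletion, Tead2 -0.96 to -0.72, Tead3 -0.086 to 0.28 and Tead4 -0.36 to 0.39, with Tead3 -0.032 to 0.13 (Insm1 deletion) and -0.31 to 0.059 (control lines). Granule minus outside: Tead3 -0.80 to 0.030 (Tead1/2), and Tead1 0.45 to 0.69, Tead3 -0.53 to 0.10 and Tead4 2.33 to 2.86 (Insm1).

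Counts of called genes over all settings ran from 64 to 312 (135 as reported, Insm1 at P2), 0 to 1287 (0, Tead1/2 at P2), 305 to 3264 (1745, control lines at P2), 215 to 2374 (1104, control lines at P7), 195 to 2133 (906, difference at P7), 2 to 8736 (294, Tead1/2 outside the Atoh1 lineage), 1 to 6649 (44, Insm1 outside it), 594 to 1854 (1672, control lines outside it), 43 to 487 (159, control lines in the granule lineage), 1117 to 4816 (1893, Tead1/2, granule minus outside) and 676 to 2516 (1483, Insm1, granule minus outside). Class levels moved by more than 1 SD in 86 of 116 cases with the 4% limit, 13 at the coarser clustering and 6 with at least 2000 UMIs. Tead4 at P2 rests on 17 to 156 counts, and Tead3 in rare classes on 3 UMIs. Removing the barcodes marked by Scrublet's own threshold was planned and not run, because that threshold failed in 3 libraries, and the score limit of 0.05 took its place after the data were seen.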
